A study of Mus musculus with 9 samples.

Results

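The heat shock chaperone genes described here are 10 genes of the mouse genome, Hspa1a, Hspa1b, Hspa8, Hsph1, Dnajb1, Hsp90aa1, Hsp90ab1, Hspd1, Hspe1 and Hspb1. They were taken by gene symbol from a table of raw RNA-seq counts of 23413 genes, and all 10 were present and passed the filter on low counts that left 11393 genes for testing. The table held 9 libraries of macrophages sorted from the livers of male C57BL/6 mice, each library from a mouse of its own per the labels. The paper gives more mice in each group than the table has libraries, so whether RNA of several mice was pooled is not known. The ND group (n = 2) came from mice on a chow with 10% of its calories from fat, and the Veh (n = 3) and DPI (n = 4) groups from mice on a high-fat diet (HFD) with 60% of its calories from fat. The diets began at 5 weeks of age and lasted 8 weeks, and from week 3 the HFD-fed mice were injected every 5 days with vehicle (Veh) or with DPI at 2 mg/kg. DPI, diphenyleneiodonium, is a flavoprotein inhibitor that the study used as an agonist of the receptor GPR3. All animals were wild type, and no ND mice were given DPI, so its effect was measured on the HFD alone. An injection is not described for ND, so diet and vehicle injection cannot be told apart between Veh and ND. The treatment field of the labels instead describes purified cells exposed to 500 nM DPI or to solvent for 24 h, while the design text and the methods describe the dosing of mice, which is followed here.

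Heat shock chaperones bind unfolded or partly folded proteins, keep them from aggregating and pass them on for folding or degradation. HSP70 proteins work in a cycle of ATP binding and hydrolysis that J-domain proteins such as DNAJB1 start and nucleotide exchange factors such as HSPH1 reset, and HSP90 proteins take over many of their clients. The transcription factor HSF1 drives the inducible genes of this set by binding heat shock elements, arrays of short GAA units in alternating orientation, whereas Hspa8 and Hsp90ab1 are the members known for high levels in unstressed cells. In macrophages these genes are also known to respond to warming, oxidants and the dissociation of tissue.

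Depth ranged from 3534325 to 15585775 counts per library, of which the ribosomal RNA precursor gene Rn45s held 27.0% to 44.5%. The biological coefficient of variation over all genes was 0.65. The least taken to differ from none, 3 counts, corresponded to 0.184 to 1.02 CPM, which are counts scaled to the same total after TMM normalization of the libraries, and each of the 10 genes had between 25 and 61276 counts in every library. Macrophage markers were read in all libraries (Csf1r at 1617 to 7753 counts), but the Kupffer cell marker Clec4f had 0 counts in ND1, Veh2 and Veh3 and 4 to 6 in DPI2, DPI3 and DPI4, and Timd4 had 0 or 1 count in 7 of the 9 libraries. The cells are therefore called sorted liver macrophages. In such bulk samples, fewer cells of a type and less RNA per cell cannot be told apart.

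The promoters that carry the heat shock elements are shown first, because these are the sequences by which the inducible genes of the set are known to be switched on. The RefSeq promoter table (assembly GRCm38.p6, 250 bases before to 50 after each start site) held 7 of the 10 genes, and Hspa8, Hsp90aa1 and Hsp90ab1 were not in it. Capitals mark the elements found by a search for GAANNTTC or TTCNNGAA (2 units) and for GAANNTTCNNGAA or TTCNNGAANNTTC (3 units), on both strands, the shorter form being contained in the longer. The first 2 sequences are the 150 bases before the start sites of Hspa1a (chr17:34972157-34972306, minus strand) and Hspa1b (chr17:34959239-34959388, minus strand), the third lies 95 to 66 bases before the start site of Hspe1 (chr1:55088053-55088082, plus strand), inside the first exon that GENCODE gives for one transcript of the divergently transcribed Hspd1, and the fourth lies 150 to 70 bases before that of Hspb1 (chr5:135887769-135887849, plus strand). Apart from the third, no annotated exon overlaps these windows.
Hspa1a: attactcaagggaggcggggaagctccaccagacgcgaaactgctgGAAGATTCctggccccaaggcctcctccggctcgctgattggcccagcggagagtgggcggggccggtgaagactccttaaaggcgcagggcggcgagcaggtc
Hspa1b: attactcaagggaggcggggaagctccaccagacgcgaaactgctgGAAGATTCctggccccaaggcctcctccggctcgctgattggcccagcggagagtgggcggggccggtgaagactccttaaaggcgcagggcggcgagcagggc
Hspe1: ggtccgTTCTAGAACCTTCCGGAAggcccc
Hspb1: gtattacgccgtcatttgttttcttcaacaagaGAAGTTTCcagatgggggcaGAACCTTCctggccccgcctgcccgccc

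Hspa1a and Hspa1b shared a 2-unit element at the same place, 104 to 97 bases before the start site, and their printed stretches differed at 1 base. The element between Hspd1 and Hspe1 ran through both 3-unit forms. Hspb1 held 2 separate 2-unit elements, and Hsph1 held a 3-unit element TTCTGGAAAGTTC from base 36 to base 48 after its first start site. In all, 3 of the 7 genes with a promoter (42.9%) had a 3-unit element, against 179 of 27025 genes (0.662%), and 6 of 7 (85.7%) had a 2-unit element, against 17.0% of genes. Dnajb1 was the gene without either form. The genes were chosen as chaperones and HSF1 targets, so the higher shares follow from that choice and say nothing about these data. Hspd1 and Hspe1 both count the element that lies between them, and Hspa1a and Hspa1b are near copies. Such a match describes letters in a window and not binding.

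Levels differed between the genes far more than between the groups. Counts were scaled to CPM with TMM factors, which correct for differences in library composition, and divided by the length of the principal transcript to compare genes. Hspa8, the constitutive HSP70 of the cytosol, had the highest level at 1110 CPM per kb (mean of 9 libraries), 2.83 times that of Hsp90ab1, the constitutive cytosolic HSP90, at 392 CPM per kb. Hspa8 was above Hsp90ab1 in 9 of 9 libraries. Hspa1a, an inducible HSP70, followed at 330 CPM per kb and was below Hsp90ab1 in 6 of 9 libraries, so the order of these neighbours did not hold in every sample. Hspe1, the mitochondrial co-chaperonin HSP10, had 139 CPM per kb, Hspa1b 126 and Hsp90aa1, the inducible HSP90, 86.3. Dnajb1 had 62.0 CPM per kb, and was below Hsp90aa1 in 5 of 9 libraries only. Hspd1, the chaperonin HSP60 with which HSP10 works, had 20.6 CPM per kb, which is below Dnajb1 in 9 of 9 libraries, and the lowest levels were those of the small heat shock protein gene Hspb1 at 10.6 and of Hsph1 at 7.96 CPM per kb, whose order held in 5 of 9 libraries.

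**Figure D1:**
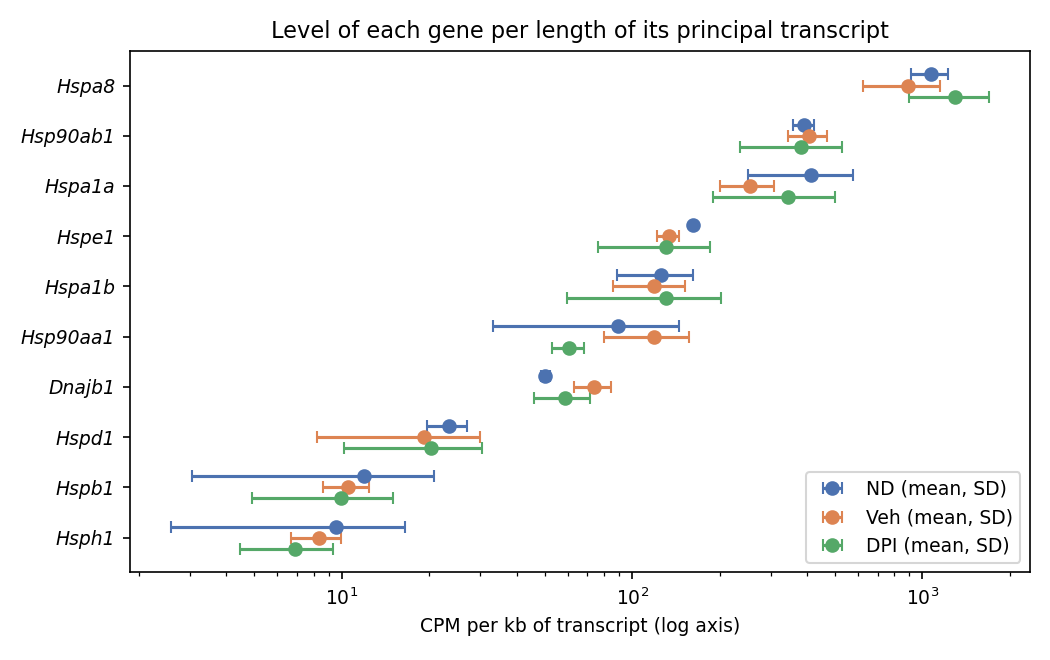
Level of each of the 10 genes in CPM per kb of principal transcript (log axis), with the mean and SD of ND (n = 2), Veh (n = 3) and DPI (n = 4) libraries. Hspa8 stands highest at 1110 CPM per kb over all libraries and Hsph1 lowest at 7.96, and the 3 groups overlap for most genes.

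None of the 10 genes passed the threshold the study used, an unadjusted p under 0.05 with a change of at least 2-fold, in any of the 3 comparisons. The test was edgeR's quasi-likelihood F test over all 9 libraries and all genes tested, with Benjamini-Hochberg adjustment over 11393 genes. For Veh against ND, which differ in diet and in vehicle injection, 0 of 10 genes were called, where 7.03% of all genes tested were called higher and 4.63% lower. For DPI against Veh, the comparison of treatments, 0 of 10 were called, where 1.5% of all genes were called higher and 1.34% lower. For DPI against ND, which shares its libraries with both, 0 of 10 were called, where 6.24% were called higher and 3.05% lower. After adjustment 0 of the 10 genes passed 0.05 in any comparison by edgeR's quasi-likelihood test, its likelihood ratio test or DESeq2, and at an unadjusted p under 0.05 edgeR counted 0, 1 and 0 of them. Among all genes, 0.0614% passed the adjustment for Veh against ND (7 genes) and 0% for DPI against Veh, where 470 genes had an unadjusted p under 0.05.

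**Figure D2:**
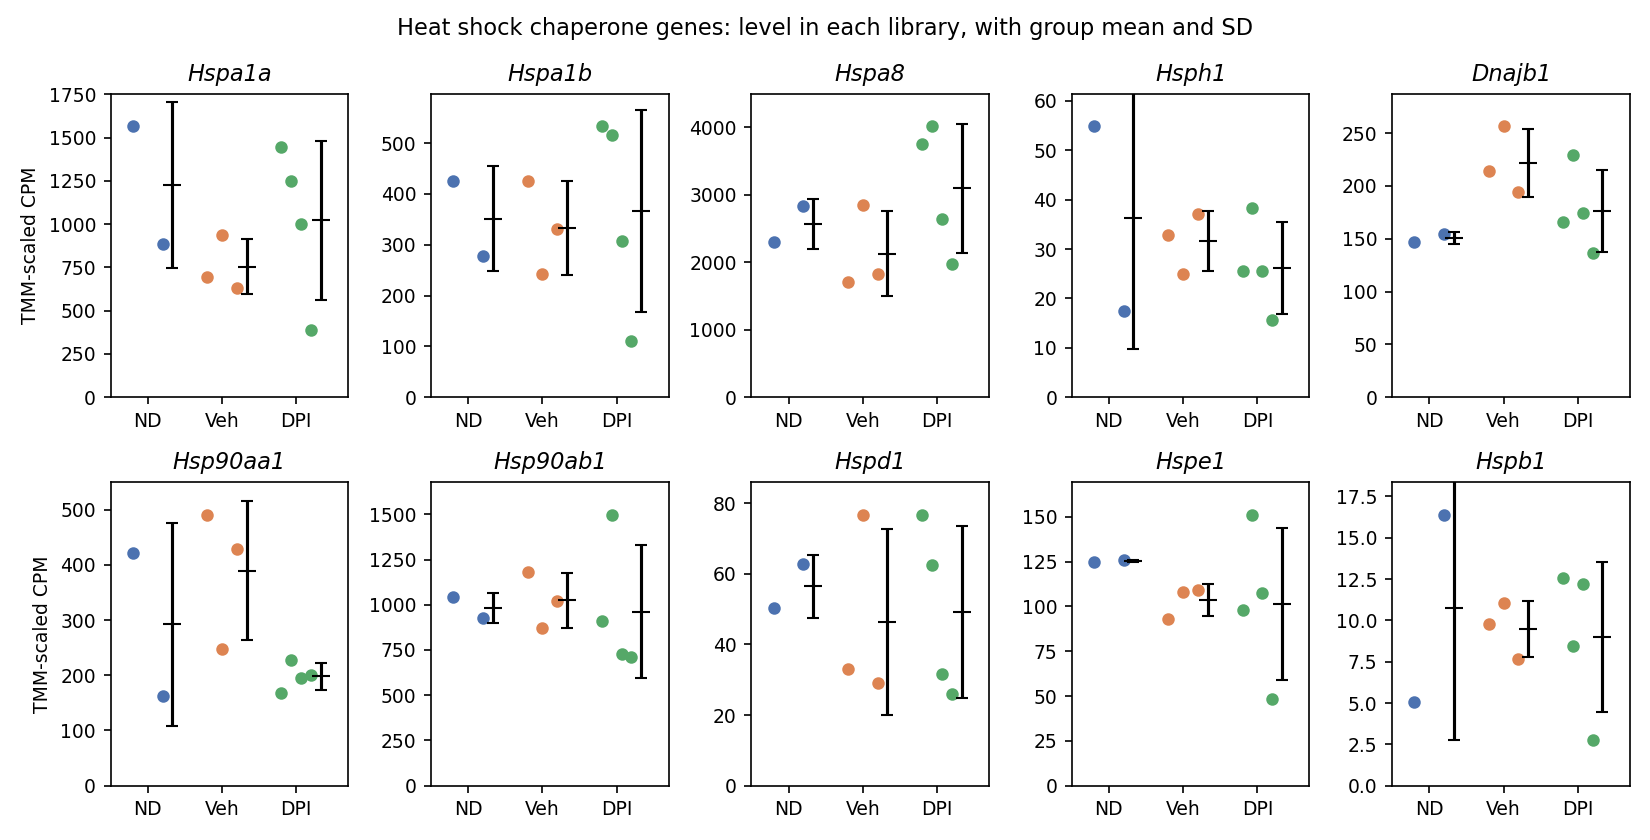
TMM-scaled CPM of each of the 10 genes in each library (points) with the mean and SD of the group (black), for ND (n = 2), Veh (n = 3) and DPI (n = 4). For Hsp90aa1 the 4 DPI libraries lie between 167 and 228 CPM, all below the Veh libraries, and DPI4, the last point of its group, is the lowest DPI library for the other 9 genes.

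Among the cytosolic HSP70 genes, Hspa1a and Hspa1b encode nearly the same inducible protein from neighbouring genes of a single exon each (chr17:34969190-34972156 and chr17:34956436-34959238). Their coding sequences were 99.43% identical, with 8 differing bases and a gap of 3, and 58.8% of the 50-base stretches of the Hspa1a transcript occurred in that of Hspa1b, so that the division of reads between them depends on how shared reads were counted. Hspa1a took 61.9% to 79.5% of the counts of the pair.

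Hspa1a measured 1568 and 886 CPM in ND, 693, 935 and 634 CPM in Veh, and 1449, 1250.0, 999.5 and 389 CPM in DPI. In the DPI group 3 libraries were above every Veh library, and DPI4 was below all other libraries. ND1 was the highest of the 9. Veh was below ND by a log2 fold change of -0.70 ± 0.44 (SE; edgeR adjusted p = 0.515), and DPI was above Veh by 0.44 ± 0.37 (adjusted p = 0.999). Hspa1b measured 425 and 279 CPM in ND, 426, 242 and 331 CPM in Veh, and 534, 515, 307 and 109.9 CPM in DPI. Again DPI4 was the lowest of the 9 libraries. Its log2 fold changes were -0.08 ± 0.51 for Veh against ND and 0.14 ± 0.43 for DPI against Veh, with 95% confidence intervals (CI) of -1.18 to 1.02 and -0.79 to 1.07, so that a 2-fold difference in either direction lies within the first interval, and a 2-fold higher but not a 2-fold lower level within the second.

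Hspa8 (chr9:40800984-40810087), which folds new proteins and uncoats clathrin vesicles in unstressed cells, measured 2303 and 2831 CPM in ND, 1708, 2847 and 1824 CPM in Veh, and 3750.0, 4019, 2643 and 1979 CPM in DPI. DPI1 and DPI2 lay above all other libraries, and DPI3 and DPI4 lay within the range of Veh. The log2 fold change of DPI against Veh was 0.54 ± 0.28 (95% CI -0.05 to 1.14, edgeR adjusted p = 0.999) and that of Veh against ND -0.27 ± 0.32. Of the 50-base stretches of its transcript, 73.2% also occurred in other annotated genes, all 11 of them pseudogenes. This share was 58.5% for Hsp90aa1, 4.49% for Hsp90ab1, 44.8% for Hspd1, 36.1% for Hspe1, 58.9% for Hspb1, 0.407% for Dnajb1 and 0% for Hsph1. The levels of genes with a large share, and their order per kb, depend on how shared reads were counted.

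Dnajb1 (chr8:83608193-83612653), the J-domain protein HSP40 that delivers clients to HSP70, measured 147 and 154 CPM in ND, 214, 257 and 194 CPM in Veh, and 166, 229, 174 and 136 CPM in DPI. All 3 Veh libraries lay above both ND libraries, a separation in this direction that 15% of all genes tested also had. The difference was 1.47-fold, a log2 fold change of 0.56 ± 0.31 (95% CI -0.11 to 1.22, edgeR adjusted p = 0.459). DPI was below Veh by a log2 difference of -0.33 ± 0.25 with overlapping groups. Hsph1 (chr5:149614287-149636376), the HSP110 that exchanges the nucleotide of HSP70, measured 54.9 and 17.5 CPM in ND, 32.8, 25.0 and 37.1 CPM in Veh, and 25.5, 38.3, 25.6 and 15.6 CPM in DPI. The ND libraries bracketed the other groups but for DPI4, and the log2 fold changes were -0.20 ± 0.52 for Veh against ND and -0.28 ± 0.44 for DPI against Veh.

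The cytosolic HSP90 genes are 75.4% identical in coding sequence and encode chaperones of kinases and steroid receptors. Hsp90aa1 (chr12:110690605-110702728) measured 423 and 163 CPM in ND, 491, 248 and 429 CPM in Veh, and 167, 228, 196 and 201 CPM in DPI. All 4 DPI libraries lay below all 3 Veh libraries, a separation in this direction that 2.48% of all genes tested also had (3.38% had the opposite one), while the ND libraries spread over both groups. DPI was 1.97-fold below Veh, a log2 fold change of -0.97 ± 0.33 (95% CI -1.68 to -0.27, edgeR adjusted p = 0.999). Its unadjusted p was under 0.05 and its size just inside the 2-fold limit of the study, and the interval was the one of the 30 fitted for these genes that did not include 0. By an exact two-sided permutation test of log2 CPM between the 4 DPI and 3 Veh libraries p = 0.0571, the smallest that these group sizes allow, and the other 9 genes had exact p of 0.171 or more. The call at the study threshold turned on the fit, since the log2 fold change was -1.004 with the DPI and Veh libraries alone, -1.22 without Veh2 and -1.05 without DPI2, each past the threshold, and -0.78 without Veh1, with an unadjusted p above 0.05. Against ND, Veh was at 0.41 ± 0.40, with -0.09 without ND2 and 1.27 without ND1, the latter past the threshold.

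Hsp90ab1 (chr17:45567775-45573271) measured 1043 and 925 CPM in ND, 1179, 872 and 1022 CPM in Veh, and 910.2, 1499, 728 and 713 CPM in DPI. It did not share the separation of Hsp90aa1, and its intervals lay within 2-fold in both directions, with log2 fold changes of 0.06 (95% CI -0.65 to 0.76) for Veh against ND and -0.09 (95% CI -0.68 to 0.50) for DPI against Veh. Hsp90aa1 accordingly held 22.2% to 29.6% of the counts of the HSP90 pair in Veh and 13.2% to 22.0% in DPI, with 28.8% and 14.95% in ND.

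Immediate early genes, a group that cells switch on within minutes of stimulation or dissociation, were for the most part also lower in DPI than in Veh. Of 21 listed, 20 were lower in DPI than in Veh (5338 of the 11393 genes tested were lower) and 4 were called lower (1.34% of all genes were), among them Egr1 (log2 fold change -1.30 ± 0.33), Nr4a1 (-1.08 ± 0.40) and Fosb (-1.06 ± 0.34), with adjusted p of 0.999 each. Their summed level was 7701 and 10776 CPM in ND, 12789 to 20166 CPM in Veh and 6460 to 16493 CPM in DPI, and for Veh against ND 16 of 21 were higher, with 6 called higher, beside 7.03% of all genes (Zfp36, Klf6 and Atf3 had the smallest p) and 1, Ier5, lower. DPI4, the DPI library with the highest summed immediate early level, had 201 CPM of Hsp90aa1, within the range of the other DPI libraries. A single library cannot show how these levels go together. The part of immediate early genes in the difference of Hsp90aa1 was not tested.

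The mitochondrial pair Hspd1 (chr1:55077835-55088243) and Hspe1 (chr1:55088132-55091307) encodes the barrel and the lid of one folding chamber and shares the promoter shown above. Hspd1 measured 50.2 and 62.8 CPM in ND, 33.0, 76.8 and 29.2 CPM in Veh, and 76.6, 62.4, 31.5 and 25.9 CPM in DPI. High and low libraries occurred in both HFD groups, and the log2 fold changes were -0.28 ± 0.53 for Veh against ND and 0.08 ± 0.44 for DPI against Veh. Hspe1 measured 125 and 126 CPM in ND, 93.1, 108 and 109 CPM in Veh, and 97.8, 151, 108 and 48.4 CPM in DPI. Both ND libraries lay above the 3 Veh libraries, a separation in this direction that 12.5% of all genes tested also had, with a log2 fold change of -0.27 ± 0.39 (95% CI -1.13 to 0.58). The widest spread was that of DPI, from DPI4 to DPI2. For DPI against Veh its log2 fold change was -0.04 ± 0.33.

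Hspb1 (chr5:135887919-135889563), the small heat shock protein HSP27 that holds unfolded proteins without ATP, was read from 25 to 205 counts per library. It measured 5.09 and 16.4 CPM in ND, 9.75, 11 and 7.67 CPM in Veh, and 12.5, 8.48, 12.2 and 2.75 CPM in DPI. The ND libraries bracketed the Veh group, and the intervals were the widest of the 10 genes, at -1.84 to 1.49 for Veh against ND and -1.48 to 1.32 for DPI against Veh on the log2 scale. A 2-fold difference of Hspb1 was not detectable at this depth and spread.

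**Figure D3:**
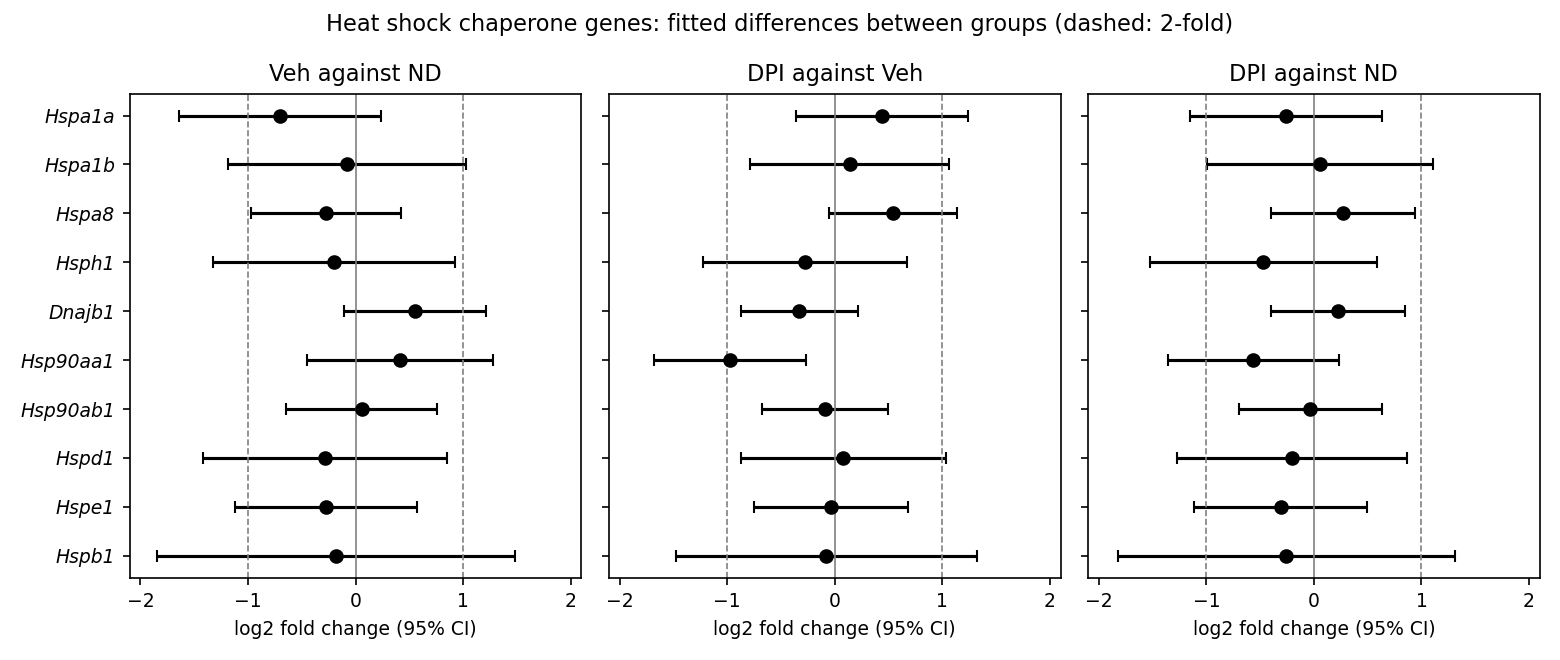
Fitted log2 fold change of each of the 10 genes (points) with its 95% confidence interval (bars) for Veh against ND, DPI against Veh and DPI against ND, with dashed lines at 2-fold. Of the 30 intervals, that of Hsp90aa1 for DPI against Veh, from -1.68 to -0.27, is the one that does not include 0.

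Counted together, 3 of the 10 genes were higher and 7 lower in Veh than in ND, at a median of -0.19 on the log2 scale beside 0.03 over all genes tested. For DPI against Veh, 4 were higher and 6 lower, with a median of -0.06 beside 0.04 over all genes. For DPI against ND, 3 were higher and 7 lower, with a median of -0.23 beside 0.04, and the log2 fold changes ran from -0.56 ± 0.37 for Hsp90aa1 to 0.27 ± 0.31 for Hspa8. Intervals lay wholly within 2-fold for 2 genes in Veh against ND (Hspa8 and Hsp90ab1), for 3 in DPI against Veh (Dnajb1, Hsp90ab1 and Hspe1) and for 3 in DPI against ND. The 10 genes together took 0.885% and 1.11% of the counts outside Rn45s in ND, 0.683% to 0.771% in Veh and 0.55% to 1.16% in DPI, of which Hspa8 alone made up 35.0% to 54.7% of the members' counts in each library.

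Within the DPI group, DPI4 was the lowest DPI library for 9 of the 10 genes, the exception being Hsp90aa1, and the lowest of all 9 libraries for 8 of them, whereas DPI2 was the highest DPI library for 6. The mean of the 10 standardized levels was -1.55 SD in DPI4 and between -0.21 and 0.85 SD in the other libraries. DPI4 had 9229418 counts, more than all libraries but DPI1. It also had the highest summed levels of neutrophil markers (5346 CPM, against 727 to 3764 in the other libraries, over 9 genes of which 0 were at 0 in DPI4), of B cell markers (404 CPM, against 14.9 to 179) and of dendritic cell markers (345 CPM, against 29.1 to 291), and the lowest of monocyte markers (3472 CPM, against 3942 to 7726). The part of these in its chaperone levels was not tested. Of the 9 neutrophil genes, S100a8 (1896 CPM), S100a9 (2352 CPM), Cxcr2 (246 CPM) and Csf3r (370 CPM) were highest in DPI4, and Ltf, Retnlg, Mpo, Elane and Camp in other libraries. No single gene of DPI4 passed Dixon's test for an outlier within the group of 4. Without DPI4 the median log2 fold change of the 10 genes for DPI against Veh was 0.21 in place of -0.06, and Hspa8 (0.71), Hspa1a (0.71) and Hsp90aa1 (-0.98) had an unadjusted p under 0.05, none of them past 2-fold, with an edgeR adjusted p = 0.880 for each.

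**Figure D4:**
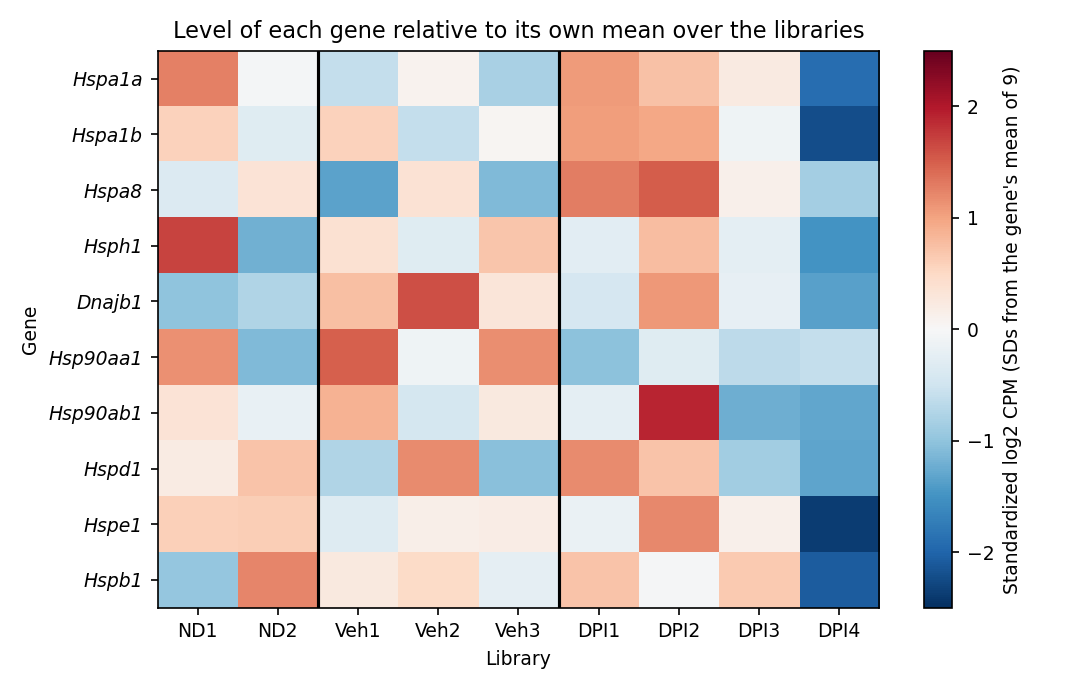
Standardized log2 CPM of each of the 10 genes (rows) in each library (columns, groups divided by lines), in SDs from the mean of that gene over the 9 libraries, red above and blue below. DPI4 is below the mean for every gene, with a mean of -1.55 SD, and Hsp90aa1 is the row in which all 4 DPI libraries are below it.

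The levels of the genes went together across libraries in part. Of the 45 pairs of genes, 39 had a positive Pearson correlation of log2 CPM over the 9 libraries, with a median r of 0.44 and a range from -0.68 to 0.79. These correlations are descriptions over libraries that differ in group, depth and composition. DPI4, the lowest of the 9 libraries for 8 of the 10 genes, enters every pair, and the correlations were not computed without it. The highest was that of Hspa8 and Hspd1 (r = 0.79, and 0.95 for deviations from the group means), followed by Hspa1a and Hspa1b (r = 0.79 and 0.85), which share reads. Hspd1 and Hspe1, which share a promoter, were at r = 0.56. Hsp90aa1 was the gene least like the rest, with a median r of 0.11 and 4 negative values among its 9 pairs, the lowest being with Hspa8 (r = -0.68), and it went most with Hsph1 (r = 0.72). Rank correlations over the 9 libraries were smaller in size for the pairs named here. They were 0.73, 0.58, 0.37, -0.60 and 0.58, in the order of naming.

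Outside the set, the genes whose log2 CPM was most like the mean of the 10 standardized levels over the 9 libraries were Creg1 (r = 0.96), Babam1 (r = 0.96), Med21 (r = 0.93), Rnase6 (r = 0.92) and Uros (r = 0.92). Without DPI4 these values were 0.88, 0.81, 0.74, 0.86 and 0.70. Among the other chaperone genes the highest values were those of Clpp (r = 0.83), a mitochondrial protease subunit, and Fkbp4 (r = 0.75), a co-chaperone of HSP90. Hsf1, the gene of the factor that acts on heat shock elements, was at r = -0.07.

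The rest of the chaperone machinery was described from a list of 91 genes, of which 90 were in the table and 77 were tested. Hsf1 measured 3.46 and 25.7 CPM in ND, 13.1, 15.2 and 23.8 CPM in Veh, and 9.98, 20.7, 14.1 and 13.1 CPM in DPI. The ND libraries bracketed the others, and its log2 fold changes were 0.25 ± 0.72 for Veh against ND and -0.27 ± 0.60 for DPI against Veh. Of the 77 genes, 5 were called higher (6.49%, beside 7.03% of all genes tested) and 3 lower (3.9%, beside 4.63%) in Veh than in ND, shares near those of all genes, at a median of -0.22, and none passed the adjustment (9 had an unadjusted p under 0.05).

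The genes called for Veh against ND are given by name. Cct3 and Cct8, subunits of the same cytosolic chaperonin TRiC, went in opposite directions, at 2.62 ± 0.69 (edgeR adjusted p = 0.166) and -1.38 ± 0.41 (adjusted p = 0.230). Cct3 measured 1.82 and 9.88 CPM in ND and 22.4 to 42.9 CPM in Veh. Bag3, the HSP70 exchange factor that is itself a known HSF1 target, was at 1.36 ± 0.41, with 27.8 and 17.5 CPM in ND and 78.3, 48.4 and 47.5 CPM in Veh. The J-domain gene Dnajc2 was at 1.93 ± 0.64 and the HSP90 co-chaperone Fkbp5, a glucocorticoid-induced gene, at 1.87 ± 0.82. Dnajb5 was called higher on 0 counts in both ND libraries and in Veh1. The HSP90 co-chaperones called lower were Ppid (-1.54 ± 0.61) and Ahsa1 (-1.002 ± 0.45), the latter at the 2-fold limit.

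For DPI against Veh, 53 of the 77 genes were higher and 24 lower, with a median of 0.24 beside 0.04 over all genes, and 1 was called (1.3%, beside 1.5% of all genes called higher). This was Ppid, the cyclophilin partner of HSP90, which measured 9.53, 10.5 and 3.71 CPM in Veh and 34.8, 31.9, 16.9 and 14.9 CPM in DPI. All 4 DPI libraries lay above Veh, at 1.63 ± 0.54 (edgeR adjusted p = 0.999), with 15.1 and 31.3 CPM in ND. Separation in this direction occurred in 7 of the 77 genes (9.09%), beside 3.38% of all genes tested. Bag3, called higher in Veh than in ND, was lower in DPI than in Veh at -0.78 ± 0.33 (edgeR adjusted p = 0.999), short of 2-fold. Its 4 DPI libraries, at 28.7 to 39.3 CPM, lay below Veh. It was the 1 gene of the 77 (1.3%) separated in this direction, beside 2.48% of all genes tested. For DPI against ND 4 genes were called higher (Cct3, Dnajc2, Dnajb5 and Hspa2), 5.19% beside 6.24% of all genes, and 1 lower (Hspbp1), 1.3% beside 3.05%. Elements of 3 units were found in the promoters of 2 of 75 of the listed genes with a promoter (2.67%), and elements of 2 units in 18 (24.0%).

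**Figure D5:**
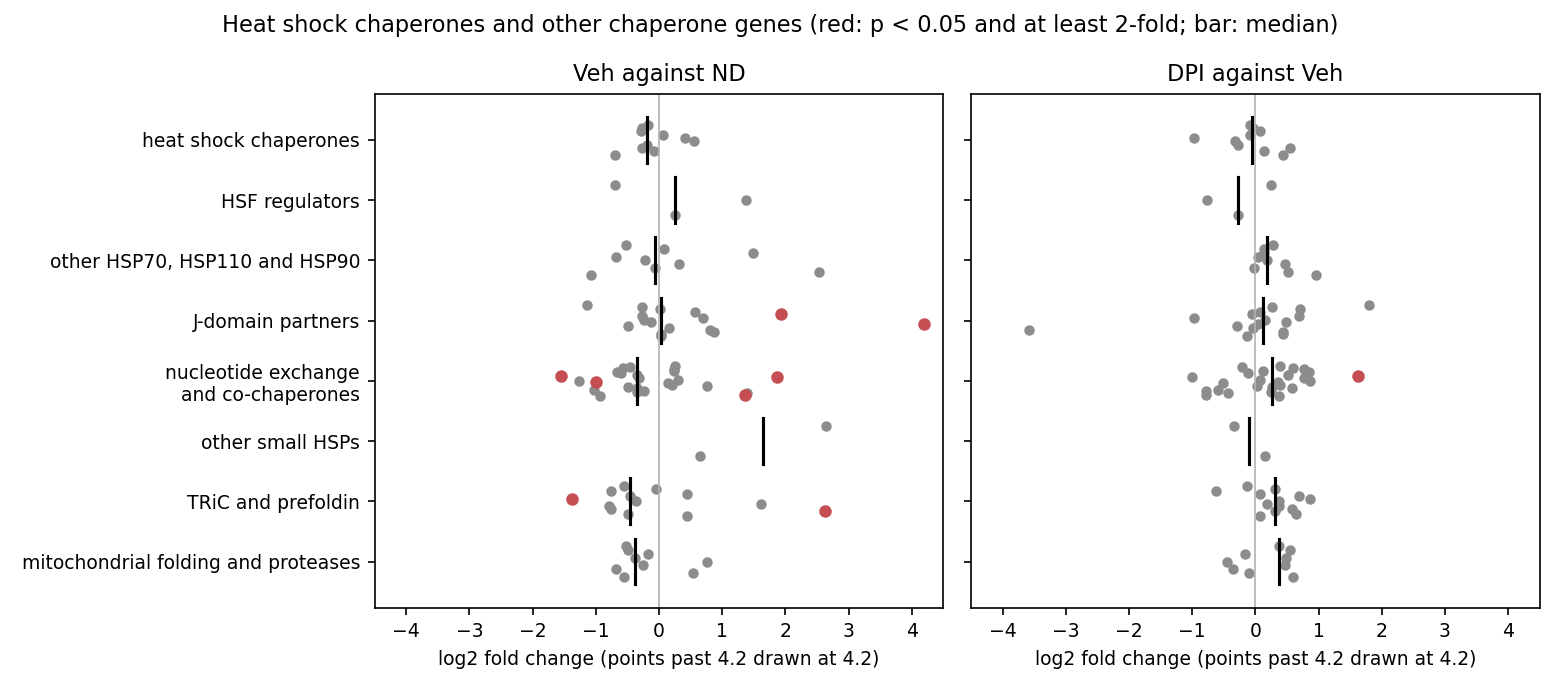
Log2 fold change of the 10 heat shock chaperone genes and of the 77 other chaperone genes tested, by class, for Veh against ND and DPI against Veh (points; red past the study threshold; bars, medians). None of the 10 genes is red, 8 other genes are in the first comparison and 1, Ppid, in the second.

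Some markers of macrophages, monocytes and other cells were called in these comparisons, where 7.03% of all genes tested were called higher and 4.63% lower for Veh against ND, and 1.5% higher for DPI against Veh. Of 10 Kupffer cell and macrophage genes tested, Emr1 (-1.05 ± 0.38) and C1qa (-1.37 ± 0.57) were called lower in Veh than in ND, and C1qa (1.14 ± 0.50) and C1qc (1.16 ± 0.50) higher in DPI than in Veh. Of 6 monocyte genes tested, Ccr2 was called lower (-1.23 ± 0.45) and Ly6c2 higher (1.04 ± 0.35) in Veh than in ND. For Veh against ND, 4 of 11 hepatocyte genes tested were called lower, among them Alb at -2.74 ± 0.59 (edgeR adjusted p = 0.115), and of 8 sinusoidal endothelial genes 3 were called lower and 1, Pecam1, higher (2.66 ± 1.05). For DPI against Veh the endothelial genes Clec4g (0 to 1.73 CPM in Veh, 0 to 57.3 CPM in DPI) and Stab2 (0 to 1.98 CPM in Veh, 0 to 37.8 CPM in DPI) were called higher, both of which were among the genes called lower in Veh than in ND. Summed endothelial levels overlapped, at 409 and 434 CPM in ND and 382 to 492 CPM in Veh, and summed hepatocyte levels were 1437 and 1647 CPM in ND, 889 to 1310 CPM in Veh and 756 to 1781 CPM in DPI. Of 4 eosinophil genes tested 3 were called higher in DPI than in Veh (Prg2, Epx and Ear6), with summed levels of 6.93 to 8.69 CPM in Veh and 5.37 to 104 CPM in DPI. Of 9 neutrophil genes, Mpo was called higher and Camp lower in Veh than in ND, and Camp (1.06 ± 0.41) and Ltf (1.39 ± 0.58) higher in DPI than in Veh. The T cell gene Cd3e (2.23 ± 0.59), the B cell gene Cd79b (2.73 ± 0.95) and the dendritic cell gene Ccr7 (2.93 ± 1.28) were called higher in Veh than in ND. For DPI against ND, where 6.24% of all genes were called higher and 3.05% lower, the markers called were Mpo, Prg2, Epx, Ear6, Cd3e, Cd3d, Cd79b and Pecam1, all higher, and 4 hepatocyte genes, all lower. The part of these markers in the chaperone levels was not tested.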

How the data were processed

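RNA of F4/80+CD11b+Gr1low liver macrophages was sequenced after poly(A) selection in 9 libraries. The table the authors deposited holds raw counts, whole numbers that were not normalized, from reads aligned to mm10 and, per the paper, counted with bowtie2 and RSEM, whereas the submitters' processing notes name TopHat2 and edgeR. How reads shared between gene copies were assigned, and strand, are not given in the sources used here. Groups and replicate numbers came from the labels.

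Counts of 3534325 to 15585775 per library were filtered with filterByExpr, scaled by TMM and fitted in 3 groups with glmQLFit and glmQLFTest of edgeR 4.0.16 in R 4.3.3, with p adjusted over 11393 genes. As in the study, a gene was called when its unadjusted p was under 0.05 and its fold change reached 2. SE are the log2 fold change over the root of F. P-values measure the spread between these libraries. CPM are counts over TMM-scaled totals, and log2 CPM used a prior count of 2. Floors of 3 counts cover counting error only. The exact permutation test of DPI against Veh was added after the values were seen. The fit was tested on simulated data whose spread was the same for every gene and lower than in these libraries. That test does not show how the fit behaves at the spread of these data.

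Gene positions and lengths came from GENCODE M21, on GRCm38, the assembly of mm10, and promoters from RefSeq. Libraries with the same replicate number did not deviate together (r of -0.02 to 0.08), so numbers were not taken as pairs. Other settings were scaling by RLE or by library size, a filter of none or of 10 counts in every library, DESeq2 1.42.0, edgeR's likelihood ratio test, fits of 2 groups, a replicate block, Rn45s left out, thinned counts, Hspa1a and Hspa1b summed, and each library left out. The genes, lists and rules were chosen with earlier results of these data known. Named were the 10 genes, Hsf1, at most 3 called genes with the smallest p per list and direction, and the 5 genes most like the set. Python 3.11.15 with matplotlib 3.10.9 drew the figures.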

Additional observations from a re-analysis of the deposited data

How the results depend on the processing

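Under the alternatives, 0 of the 10 genes passed an adjusted p of 0.05 in any comparison. The number called at the study threshold went from 0 to 1, Hsp90aa1 each time, for DPI against Veh with only those groups in the fit, and over libraries left out it ran from 0 to 1 in each of the 3 comparisons: for Veh against ND without ND1, for DPI against Veh without Veh2 or DPI2, and for DPI against ND without ND2. The median log2 fold change of the 10 genes kept its sign under the 2 other scalings and 2 other filters. Library size scaling moved it further below 0 for both comparisons with ND. The median of all genes then also moved, from 0.03 to -0.26 for Veh against ND and from 0.04 to -0.17 for DPI against ND. With the replicate block the median of the 10 genes went from -0.06 to 0.23 for DPI against Veh. It ran from -0.19 to 0.21 over libraries left out, the highest without DPI4. For Veh against ND it was -0.19, -0.04 with the block, and -0.19 to -0.01 over libraries left out, nearest to 0 without Veh3 and at -0.03 without ND1. For DPI against ND it went from -0.23 to 0.20 with the replicate block and ran from -0.38 to 0.17 over libraries left out. The number of other chaperone genes called went from 8 to 4 (Veh against ND), from 1 to 4 (DPI against Veh) and from 5 to 9 (DPI against ND) with the replicate block, to 3 with no filter (DPI against Veh) and to 8 with library size scaling (DPI against ND). Over libraries left out it ran from 6 to 16, from 1 to 3 and from 4 to 15, the highest for both comparisons with ND being without ND2, where calls over all genes also rose, from 801 higher and 528 lower to 1793 and 841 for Veh against ND and from 711 and 347 to 1812 and 814 for DPI against ND, with 12334 genes tested. The cause was not tested.

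None of the genes whose direction changed was past the threshold in the reported fit or under the setting that turned it. The log2 fold change of single genes changed sign for Veh against ND with library size scaling (Hsp90ab1, -0.24) and the replicate block (Hspa1b, 0.050), for DPI against Veh with library size scaling (Hspe1, 0.0047) and the block (Hspe1 0.18, Hspb1 0.28), and for DPI against ND with library size scaling (Hspa1b -0.20, Dnajb1 -0.012), with the pair summed (Hspa1b, -0.19) and with the block (Hspa1a 0.15, Hsp90ab1 0.17, Hspd1 0.29, Hspb1 0.23). Over libraries left out, the genes that changed sign had ranges for Veh against ND of -0.33 to 0.26 for Hspa1b, -0.77 to 0.86 for Hsph1, -0.092 to 1.27 for Hsp90aa1, -0.0085 to 0.16 for Hsp90ab1, -0.86 to 0.015 for Hspd1 and -0.78 to 0.93 for Hspb1. The ranges were, for DPI against Veh, -0.10 to 0.44 for Hspa1b, -0.39 to 0.029 for Hsp90ab1, -0.23 to 0.66 for Hspd1, -0.30 to 0.20 for Hspe1 and -0.29 to 0.23 for Hspb1. The ranges were, for DPI against ND, -0.58 to 0.22 for Hspa1a, -0.18 to 0.41 for Hspa1b, -1.04 to 0.58 for Hsph1, -1.06 to 0.29 for Hsp90aa1, -0.29 to 0.087 for Hsp90ab1, -0.51 to 0.0087 for Hspd1 and -0.85 to 0.85 for Hspb1. Library size scaling moved the median of all genes for Veh against ND from 0.03 to -0.26 and its calls from 801 higher and 528 lower to 539 and 933, and calls with an adjusted p under 0.05 numbered 7 with the quasi-likelihood test, 280 with the likelihood ratio test and 312 with DESeq2. Groups of 2 to 4 libraries with a coefficient of variation of 0.65 limit what can be called.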

Other observations

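The proportions within 2 pairs of chaperones overlapped between the groups, and are given as values without a test. The count ratio of Hspd1 to Hspe1, which share a promoter, was 0.402 and 0.5 in ND, 0.355, 0.710 and 0.267 in Veh, and 0.783, 0.413, 0.293 and 0.535 in DPI. The share of Hspa1a in the counts of Hspa1a and Hspa1b was 78.7% and 76.1% in ND, 61.9%, 79.5% and 65.7% in Veh, and 73.1%, 70.8%, 76.5% and 78.0% in DPI. Of the 50-base stretches of the Hspa1a transcript 58.8% also occur in that of Hspa1b. Hsf2 measured 5.64 and 3.54 CPM in ND, 14.9, 11.4 and 9.65 CPM in Veh, and 4.59, 7.12, 11.9 and 4.58 CPM in DPI, with a log2 fold change of 1.38 ± 0.76 for Veh against ND (edgeR adjusted p = 0.456). Hsbp1, a negative regulator of HSF1, measured 78.7 and 96.2 CPM in ND, 57.9, 57.4 and 47.3 CPM in Veh, and 80.6, 76.0, 48.2 and 53.5 CPM in DPI, with -0.69 ± 0.34 for Veh against ND (adjusted p = 0.405). Both were separated between Veh and ND, in opposite directions, as 15% of all genes tested were with higher and 12.5% with lower levels in Veh, and they were chosen after their values were seen.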
